A study of Ovis aries with 2 samples.

Results

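In single cells of sheep embryos at embryonic day 16, 7 genes were examined that behave as globin genes. Of these, 6 have only an identifier in the features list and no symbol: ENSOARG00020004314, ENSOARG00020004358, ENSOARG00020004525, ENSOARG00020015536, ENSOARG00020015576 and ENSOARG00020015678. The other one is HBM, which does have a symbol. They are 7 of 26478 features. They had been picked in an earlier look at these data for their pattern of counts and for their place in the features list. The counts of most of them are very high in cells with erythroid genes. Their high level in erythroid cells is therefore what chose them and is given here as a description. No file pairs the 6 identifiers with a name, so which globin chain each of them encodes is not given here, and no sequence of them is printed.

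Haemoglobin carries oxygen in red cells and is built from alpha-type and beta-type globin chains, each holding a haem group. In mammals the genes of each type lie together in a cluster, and the clusters hold embryonic and adult members that are used at different stages. The first red cells of an embryo arise in the yolk sac and carry mainly embryonic chains. HBB is the adult beta-globin gene, and HBM and HBQ1 are weakly used members of the alpha-type cluster, which is flanked by NPRL3 and LUC7L in many mammals.

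The features list sets the genes in a pair of blocks. ENSOARG00020004314 and ENSOARG00020004358 come just before HBB, and ENSOARG00020004525 comes just after ENSOARG00020004499, the gene that follows HBB. These 3 genes are called the HBB side below. ENSOARG00020015536, ENSOARG00020015576, HBM and ENSOARG00020015678 follow each other in that order, ahead of HBQ1 and between NPRL3 and LUC7L, and these 4 are called the HBM side. The order of rows is a property of the list. It had been used when the genes were picked and is used here for these labels only. The RefSeq table for a later Rambouillet sheep assembly, ARS-UI_Ramb_v3.0, lists 4 protein-coding genes without a proper symbol between NPRL3 and LUC7L, besides HBM and HBQ1, and it matched 0 of the 7 identifiers. Copies of a globin gene can be so alike that reads are shared between them, so each ratio between members is one of counted molecules and is uncertain to that extent.

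The study compared Ujumqin sheep, its control breed, with Hulunbuir Short-tail sheep. The design names 3 embryos for each breed. Embryos were pooled, extraembryonic tissue was taken off under a microscope and red cells were lysed with a buffer in both breeds, and each pool gave 1 library. With 1 library per breed there is no replicate, so no test was made between breeds or between groups of cells, and all 95% intervals cover counting error only. The 17059 Ujumqin barcodes held 212933364 unique molecular identifiers (UMIs) and the 10709 Hulunbuir barcodes held 131385353. A cell was kept if it had 200 genes or more and less than 10% of its UMIs on mitochondrial genes, which left 14554 Ujumqin cells with a median of 9519 UMIs and 9583 Hulunbuir cells with a median of 11879. The libraries shared 61 barcodes, and the 53 of these kept in Hulunbuir held 12 globin UMIs there.

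Cells were grouped by marker genes that include no globin. A cell passed a gate with UMIs of at least 3 markers and a summed marker share of at least 0.2% of its UMIs for the erythroid, endoderm, mesenchyme and cardiomyocyte lists, or 0.1% for the others. The erythroid gate took 2549 Ujumqin cells and 1 Hulunbuir cell. The cut of 0.2% lay in the middle of the erythroid population, with 4138 Ujumqin cells within 25% of it. A further 2387 Ujumqin cells had at least 3 erythroid markers at 0.1 to 0.2%, and they are given as cells below the cut, a group added after seeing the data. All 11 erythroid markers found in the files had UMIs in the gate. AHSP, the chaperone of free alpha globin, stood at 1432 UMIs per 1000000 UMIs (CPM) there and at 50.3 CPM in the mesenchyme gate. ALAS2, the first enzyme of haem synthesis in red cells, stood at 555 and 21.9 CPM.

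The 7 genes took 53893232 of the 209576780 UMIs of the kept Ujumqin cells, which is 25.7%. In the kept Hulunbuir cells they took 18428 UMIs, or 0.0143%. In Ujumqin each of the 14554 cells had a globin UMI, and the share of a cell's UMIs ran from 0.118% through a median of 17.8% to 68.0%. In Hulunbuir 28.0% of the cells had a globin UMI, and the highest cell reached 42.8%. The Hulunbuir median was 0%.

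**Figure D1:**
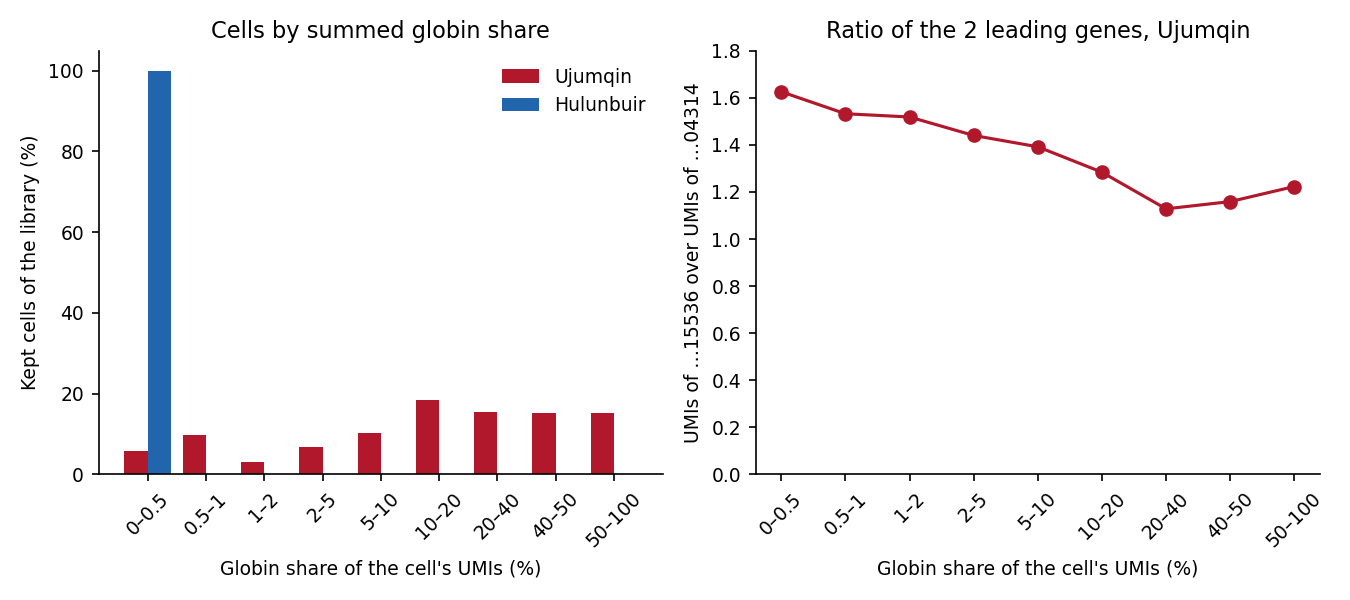
Left, share of the kept cells (%) in each class of summed globin share of a cell's UMIs (%, classes of unequal width) for Ujumqin (red) and Hulunbuir (blue). Right, UMIs of ENSOARG00020015536 over those of ENSOARG00020004314 in the same Ujumqin classes, which fell from 1.63 in the lowest class to 1.13 at 20 to 40% and stood at 1.22 in the highest; 99.9% of the Hulunbuir cells were in the lowest class.

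In the Ujumqin erythroid gate the 7 genes made up 46.9% of all UMIs (interval 46.9 to 46.9%, n = 1 library of 2549 cells). Single cells ran from 10.2% to 66.7% with a median of 47.4%. The cells below the cut had a share of 48.9% and a median of 10176 globin UMIs per cell, against 9799 in the gate. The gate and the cells below it thus held cells of a like globin content.

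On the HBM side, ENSOARG00020015536 led with 207446 CPM in the erythroid gate, or 44.3% of the globin UMIs there. ENSOARG00020015678 followed with 59740 CPM and 12.7%, and ENSOARG00020015576 with 20111 CPM and 4.29%. HBM was far below them at 29.2 CPM (interval 27.8 to 30.7), from 1577 UMIs. HBQ1, the next gene in the list and not one of the 7, stood at 96.6 CPM and so above HBM.

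On the HBB side, ENSOARG00020004314 had 178430 CPM and 38.1% of the globin UMIs. ENSOARG00020004525 had 2925 CPM and 0.624%. ENSOARG00020004358 had 49.8 CPM (interval 47.9 to 51.7). HBB itself had 1.05 CPM (interval 0.799 to 1.37), from 57 UMIs, and ENSOARG00020004499 had 7.44 CPM. The adult beta-globin gene, as annotated, was thus among the lowest of the listed globin genes in these cells. MB, CYGB and NGB, the globins of muscle, of many tissues and of neurons, had 0 UMIs in the gate, and a count of 0 allows up to 0.0555 CPM.

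The order of the 7 genes in the gate was ENSOARG00020015536, ENSOARG00020004314, ENSOARG00020015678, ENSOARG00020015576, ENSOARG00020004525, ENSOARG00020004358 and HBM. The counting intervals of neighbours in this order did not overlap, and the cells below the cut had the same order. With the gate cut at 0.4%, which left 13 cells, ENSOARG00020004314 stood above ENSOARG00020015536, at 176353 and 169702 CPM, and HBM stood above ENSOARG00020004358, at 69.1 and 0 CPM. The libraries are read from the 3′ end of the transcript, so these levels were not divided by length. The HBB side summed to 38.7% of the globin UMIs, and the HBM side was 1.58 times as high.

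**Figure D2:**
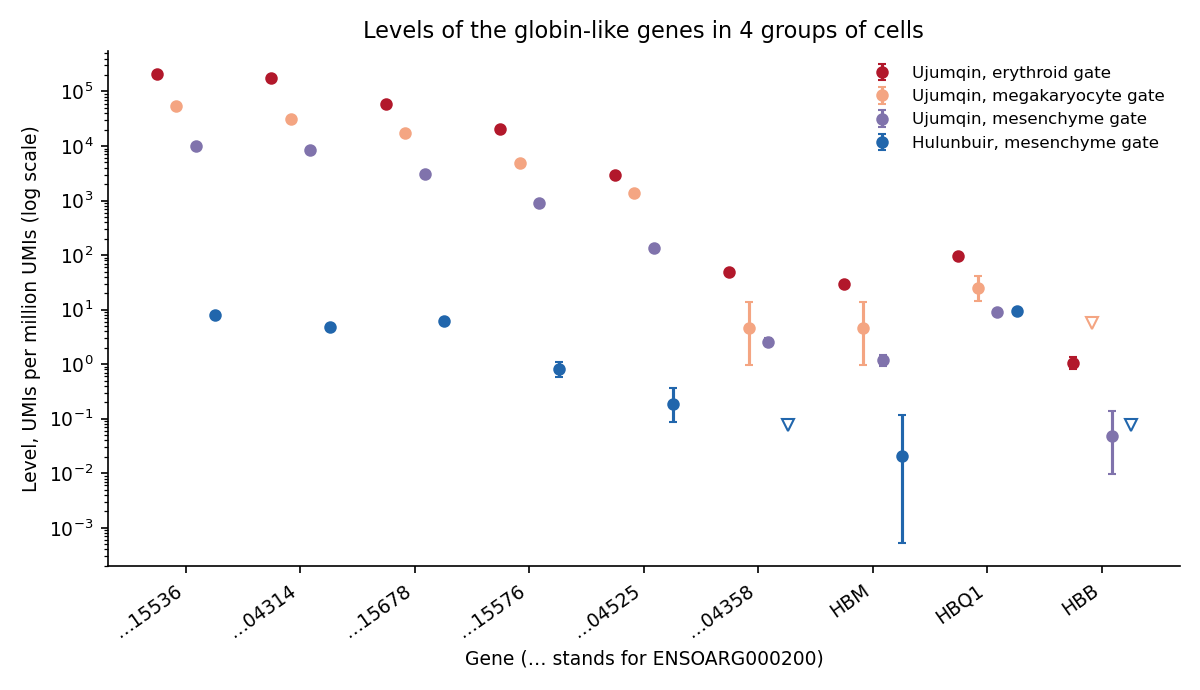
Levels (UMIs per 1000000 UMIs, log scale) of the 7 genes, HBQ1 and HBB in the erythroid, megakaryocyte and mesenchyme gates of Ujumqin and in the mesenchyme gate of Hulunbuir, each a sum over the cells of 1 library. Bars are exact 95% Poisson intervals and open triangles are upper limits of groups with 0 UMIs; HBQ1 is the gene whose mesenchyme levels lie together, at 9.20 and 9.56 CPM, while ENSOARG00020015536 stands at 10000 and 7.86 CPM.

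The composition varied from cell to cell in the erythroid gate by more than counting gives. ENSOARG00020004314 ran from 11.1% through a median of 38.4% to 54.4% of a cell's globin UMIs, with an SD of 4.46 percentage points over 2549 cells, where counting alone would give 0.591. For ENSOARG00020015536 the SD was 3.49 points against 0.606 from counting. For ENSOARG00020015678 it was 2.66 against 0.407.

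ENSOARG00020015576 had an SD of 0.425 points, or 1.72 times the value from counting, the lowest such ratio among the 5 abundant genes. Counting error weighs more for a gene with a small share of globin UMIs. The ratio therefore does not rank the genes by how much they vary. ENSOARG00020015576 stayed close to ENSOARG00020015536, its neighbour in the list. The ratio of its UMIs to those of ENSOARG00020015536 was 0.0969 over the gate. In single cells this ratio had a median of 0.0967 and its middle 90% lay between 0.0866 and 0.108. The ratio of ENSOARG00020015678 to ENSOARG00020015536 was wider, at 0.190 to 0.414 over the middle 90%.

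The same pairing appears in the correlations of log2 levels (UMIs per 10000 plus 1) across the 2549 cells, which share 1 library and are a description. ENSOARG00020015576 and ENSOARG00020015536 had a Pearson r of 0.942. ENSOARG00020015536 had an r of 0.585 with ENSOARG00020004314, the leading gene of the HBB side, and 0.564 with ENSOARG00020015678. Among the genes most like ENSOARG00020004314 after the members was PRDX2, a red cell peroxidase, with 0.198, which is weak. The lowest value for ENSOARG00020015536 was -0.655, with ENSOARG00020020554, a gene without a symbol. The ribosomal protein gene RPS12 followed at -0.61. The shares of a cell's UMIs are bound to sum to 1.

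ENSOARG00020004525 followed none of the others. Its highest r with any of the 1596 genes tested was 0.108, and its lowest was -0.13, with ENSOARG00020004314. The median cell had 0.0380% of its globin UMIs on it and the highest cell 22.4%. In 1647 of the 2549 cells it held under 0.1%, with a median of 2 UMIs. At the other end, 33 cells (1.29%) had at least 10%, with a median of 1150 UMIs of it, and held 30.4% of all its UMIs in the gate. With the cells at 5 to 10% these were 70 cells, or 2.75%, with 49.0% of its UMIs.

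Where ENSOARG00020004525 was high, ENSOARG00020004314 was low. Its share of globin UMIs was 38.6% in the cells under 0.1%, 38.3% at 0.1 to 1%, 36.4% at 1 to 5%, 32.0% at 5 to 10% and 27.7% in the 33 cells above. Shares sum to 100%, so a higher share of one gene lowers the others. ENSOARG00020015536 was 44.3% in the lowest group and 40.3% in the highest. The HBB side as a whole was 38.6% in the lowest group and 44.6% in the highest. ENSOARG00020004358, the gene beside ENSOARG00020004314, also went from 0.0121% to 0.00210%, the latter from few UMIs. HBB was at 0.753 CPM (26 UMIs, interval 0.492 to 1.10) in the lowest group and at 6.19 CPM (4 UMIs, interval 1.69 to 15.9) in the highest, and reads shared between ENSOARG00020004525 and HBB cannot be told from molecules of HBB.

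The values of other genes in these groups were as follows. ALAS2 was 560 CPM in the lowest group and 573 CPM in the highest. KLF1, an activator of adult beta globin, was 156 and 158 CPM, and GATA1, the main erythroid factor, was 94.2 and 110 CPM. BCL11A, a repressor of embryonic and fetal globin genes, was at 0.0579 and 0 CPM, and MYB, a factor of definitive progenitors, was at 0.405 and 0 CPM. SOX6, another repressor, was at 0.232 and 1.55 CPM, the latter from 1 UMI. As 1 UMI is 1.55 CPM in the highest group, the values of 0 there do not show lower levels of BCL11A or MYB. The metallothionein gene MT1A was at 29.5 and 4.65 CPM, the latter from few UMIs. ENSOARG00020002928, without a symbol, was at 203 and 125 CPM. HBQ1 was 99.7 and 97.6 CPM. The median depth was 20904 UMIs in the lowest group and 19747 in the highest, and globin shares were 46.9% and 44.2%.

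**Figure D3:**
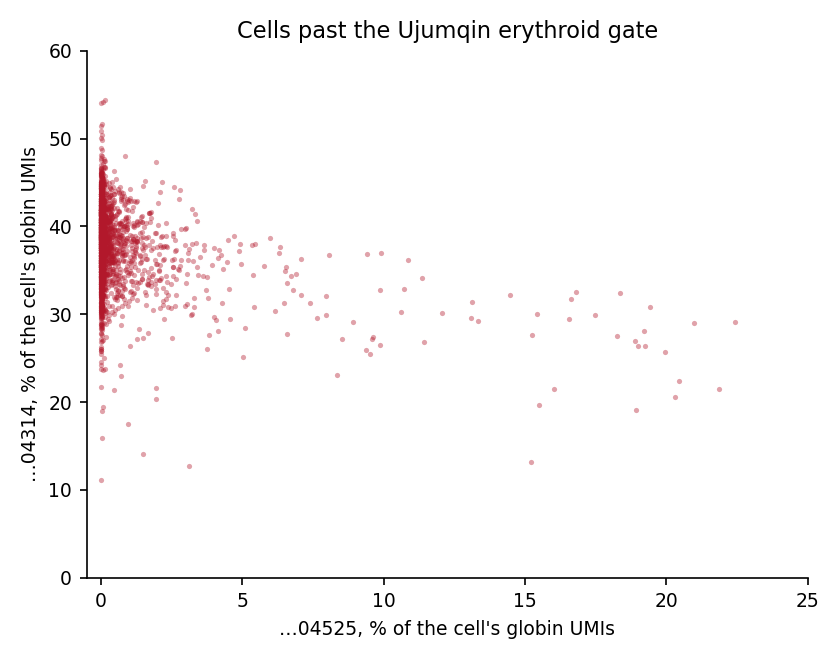
Each point is a cell of the Ujumqin erythroid gate (2549 cells, 1 library), with ENSOARG00020004525 on the x axis and ENSOARG00020004314 on the y axis, both as % of the cell's globin UMIs. Most cells stand at the left edge near 38.4% of ENSOARG00020004314, and a sparse tail reaches 22.4% of ENSOARG00020004525 with less of ENSOARG00020004314.

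The same tail was seen outside the gate. Of the kept Ujumqin cells with 200 or more globin UMIs, 187 had at least 5% on ENSOARG00020004525, with 70 in the erythroid gate, 81 below the cut and 21 in no gate. In the cells below the cut, the highest was 24.9%. The highest cell of any group reached 40.1%.

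The shares of the leading genes were also taken by depth and by stress genes. From the shallowest to the deepest quartile of the erythroid cells by UMIs, ENSOARG00020004314 went from 36.8% to 38.9% of globin UMIs and ENSOARG00020015536 from 45.2% to 43.6%. From the lowest to the highest quartile by summed share of the metallothionein genes MT1A, MT1C and MT2, which bind metals and mark stress, the globin share went from 45.3% to 49.4%. ENSOARG00020004314 went from 39.0% to 37.0% of globin UMIs and ENSOARG00020004525 from 0.476% to 0.803%. MT1A alone was lower in the cells highest in ENSOARG00020004525, as given above, from few UMIs.

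The other genes of haemoglobin synthesis were taken from fixed lists. In the Ujumqin erythroid gate against the mesenchyme gate, 35 of 1787 genes with at least 50 CPM in the higher group were at least 4-fold higher, 1.96%, and 22.6% were at least 4-fold lower. Of the 7 genes, 5 reached 50 CPM and all 5 were higher, which their choice fixes. ENSOARG00020004358 and HBM did not reach 50 CPM. The globin UMIs fill the total of the erythroid cells and lower all other genes in it. Without the 7 genes in the total, 4.13% were higher and 11.9% lower, and the median log2 ratio of all genes tested moved from -1.16 to -0.21.

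Of 13 genes of haem synthesis and transport, 11 were found by symbol and 6 could be compared, and 6 were at least 4-fold higher. Their median log2 ratio was 2.77. ALAS2, which is a gate marker, had 4.66. UROD, which decarboxylates uroporphyrinogen, had the lowest of the 6 with 2.08. FECH, which inserts the iron, had 47.6 and 3.30 CPM and fell short of 50 CPM.

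For iron supply and haem handling, 2 of 3 genes compared were higher. BLVRB, a biliverdin reductase, had 2215 and 168 CPM, and STEAP3, a ferrireductase, had 56.3 and 4.80 CPM. FTH1, the ferritin heavy chain, had 14477 and 4420 CPM and did not reach 4-fold in this total, and it reached a log2 ratio of 2.59 with the 7 genes left out of the total. For red cell protection, PRDX2 with 5333 and 693 CPM and GPX1, a glutathione peroxidase, with 2829 and 453 CPM were both higher. The carbonic anhydrase gene CA1 had 0 UMIs in both groups.

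Of 14 regulators and chaperones of globin genes, 3 could be compared, AHSP, KLF1 and GATA1, and these 3 are gate markers, so their higher level is fixed by the gate. BCL11A and SOX6, repressors of embryonic globin genes on this list, had few UMIs. BCL11A had 2 UMIs and SOX6 had 11 in the 54050739 UMIs of the erythroid gate, at 0.0370 and 0.204 CPM. In the mesenchyme gate they had 0.462 and 1.53 CPM. In the erythroid gate MYB had 15 UMIs and KLF2, a factor of embryonic globin genes, had 16. Of the other list genes, TAL1 and LMO2 were also low there, with 60 and 61 UMIs, while ZBTB7A had 808.

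Over 11 groups of at least 50 cells in both libraries, the genes whose log2 level (CPM plus 1) was most like the summed globin level were AHSP with an r of 0.979, ALAS2 with 0.962 and ENSOARG00020015582, a gene without a symbol, with 0.945. TSPO, a mitochondrial outer membrane protein, and KLF1 both had 0.912. AHSP, ALAS2 and KLF1 are markers of the erythroid gate, so their high level in that group is fixed by the grouping. The groups share libraries, and the values are a description.

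Globin UMIs were also found in the Ujumqin cells of other gates. The mesenchyme gate had a summed share of 2.24%, with a cell median of 0.623%, over 2178 cells of 24762 UMIs in the median. In it, 484 cells with a share of at least 2% held 80.1% of the globin UMIs, with a median of 2464 UMIs per cell, and 140 of them had UMIs of at least 3 erythroid markers. The other 1694 cells had a share of 0.508%. The endoderm gate had 2.84% over 1330 cells, with a cell median of 12.9%, and many of these were shallow, with a median of 1012 UMIs. Its 251 cells under 2% globin had 0.428%. Its 216 cells with at least 5% of their UMIs on plasma protein genes, a group added after seeing the data, had 1.32%. The endothelium gate had 3.22% over 81 cells, with a cell median of 0.751%, and 18 of its cells with at least 2% held 88.1% of the globin UMIs. The other 63 had 0.536%.

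Among Ujumqin cells outside the erythroid and endoderm gates, the share was 19.9%, and this falls to 3.72% without the cells below the cut. All 11 erythroid markers had UMIs in the mesenchyme gate as well, with 89.6 CPM in sum against 2413 CPM in the erythroid gate. There were 250 globin UMIs for each UMI of an erythroid marker in the mesenchyme gate and 194 in the erythroid gate. The erythroid gate took its cells by a high marker share, which in itself lowers this ratio there. The difference between these gates is therefore in part fixed by the cut.

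The number of globin UMIs in cells with no erythroid marker UMI changed far less than depth. Over 5482 such Ujumqin cells, the median was 123 globin UMIs at a median depth of 649 UMIs, 122 at 1360, 123 at 2824, 118 at 7089, 135 at 15619, 159 at 27502 and 229 at 69621. The median share went down from 18.7% to 0.300% over the same range. Hulunbuir cells of the same kind had a median of 0 globin UMIs in each depth class. Ujumqin groups had from 138 (megakaryocyte gate) to 296 (no gate) globin UMIs per erythroid marker UMI. Taking only cells without a marker UMI thus leaves out most cells of high globin count, which in part sets the narrow range. Barcodes without cells were not analysed here, and the part of free RNA in these values was not tested.

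**Figure D4:**
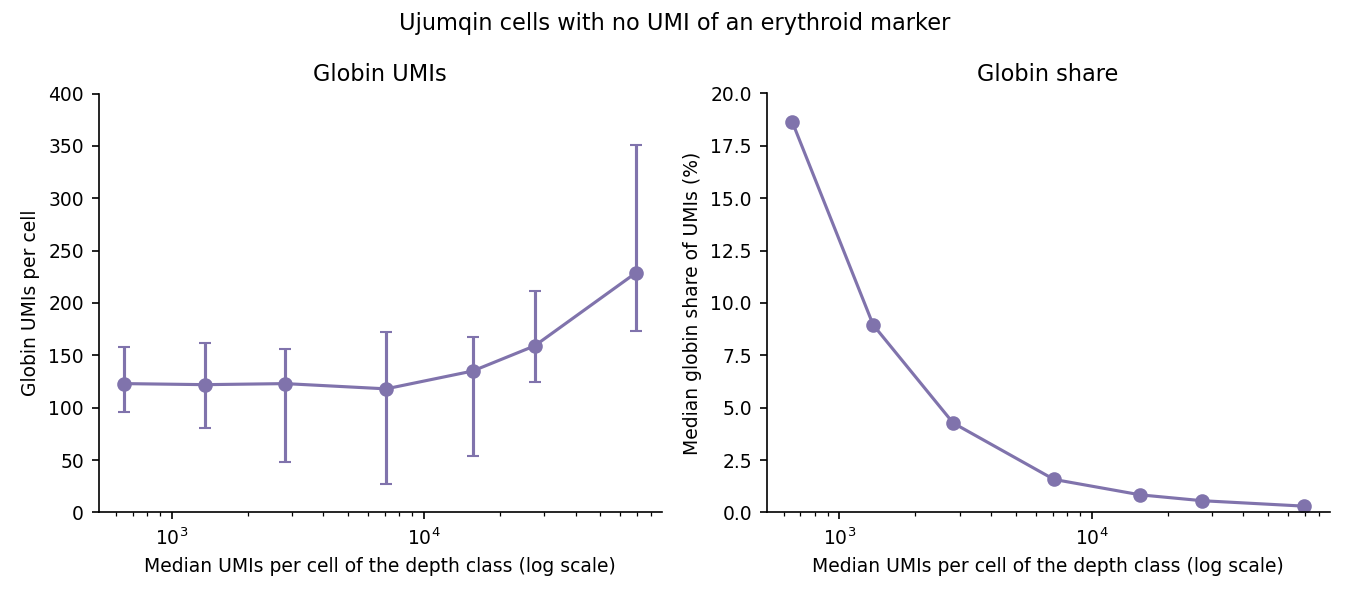
Ujumqin cells with no UMI of an erythroid marker (5482 kept cells, 1 library), grouped by depth, with the median UMIs per cell of each class on the x axis (log scale). Left, median globin UMIs per cell with bars from the 5th to the 95th percentile of cells, near 120 up to 7089 UMIs and 229 in the deepest class; right, the median globin share (%), which falls from 18.7 to 0.300.

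The composition was set beside that of the erythroid gate. ENSOARG00020015536 stood at 1.59 times ENSOARG00020004314 in mesenchyme cells under 2% globin, at 1.57 in such endoderm cells, at 1.49 in such cells of no gate and at 1.38 in such endothelium cells, against 1.16 in the erythroid gate and 1.21 below the cut. The whole mesenchyme gate had 1.21. It was 1.45 in barcodes under 200 genes. Between mesenchyme cells the SD of ENSOARG00020004314 was 4.50 points, where counting alone would give 3.70, a ratio of 1.22. The ratio was 1.14 for ENSOARG00020015536 and 1.11 for ENSOARG00020015678. Counting error is large at the gate's median of 155 globin UMIs per cell. These ratios therefore do not show that mesenchyme cells vary less than erythroid cells.

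The megakaryocyte gate was set beside these groups as well. Its 70 cells, with platelet markers such as GP1BB and CLEC1B, had a summed globin share of 10.7%, a cell median of 9.69% and a median of 707 globin UMIs. The ratio of ENSOARG00020015536 to ENSOARG00020004314 was 1.73, and single cells ran from 0.503 to 17.3. The summed ratio was 1.59 in mesenchyme cells under 2% globin and 1.16 in the erythroid gate. The HBB side made up 29.9% of the globin UMIs, against 32.5% in those mesenchyme cells and 38.7% in the erythroid gate. ENSOARG00020015576 made up 4.49%, against 3.26% and 4.29% in the same 2 groups. ENSOARG00020004525 made up 1.28%, against 0.732% and 0.624%. Between the 70 cells the SD of ENSOARG00020004314 was 8.35 points, where counting alone would give 1.77. Erythroid markers summed to 779 CPM in these cells, with 7 of 11 seen, and their part in the globin level was not tested.

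In the Hulunbuir library, 5 of the 9583 kept cells had a globin share of at least 5%, and they held 14992 of the 18428 globin UMIs, 81.4%. Their shares were 42.8%, 42.6%, 27.0%, 24.1% and 8.04%. The second is the 1 cell of the erythroid gate, the first and the third lie below the cut, the fourth is in no gate and the fifth is in the endothelium gate. None of the 5 has a barcode that is also in the Ujumqin library.

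In these 5 cells ENSOARG00020015536 led, as in Ujumqin. ENSOARG00020004314 made up 33.9%, 35.3%, 22.7%, 26.3% and 16.4% of their globin UMIs, against a middle 90% of 30.3 to 44.3% in the Ujumqin erythroid gate. The ratio of ENSOARG00020015536 to ENSOARG00020004314 was 1.41, 1.24, 2.62, 2.12 and 3.67. The ratio of ENSOARG00020015576 to ENSOARG00020015536 was 0.121, 0.126, 0.118, 0.103 and 0.132, beside the median of 0.0967 in the Ujumqin erythroid gate. These are values of 5 cells of 1 library, and their difference from Ujumqin was not tested.

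The other 9578 Hulunbuir cells had 3436 globin UMIs, or 26.7 CPM, and 72.0% of them had 0. The most in a cell was 14. ENSOARG00020015536 had 10.6 CPM, ENSOARG00020015678 had 8.13 CPM and ENSOARG00020004314 had 6.36 CPM. ENSOARG00020015678 made up 30.4% of the globin UMIs there, and its ratio to ENSOARG00020015536 was 0.766, against 0.288 in the Ujumqin erythroid gate and 0.259 in the 5 Hulunbuir cells. All 7 UMIs of HBM in the kept Hulunbuir cells lay in these other cells.

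ENSOARG00020015678 also differed from the other genes in where it was found. Without the high cell, the 450 cells of the Hulunbuir endothelium gate had 151 UMIs of it, 14.7 CPM (interval 12.4 to 17.2), and the 2609 cells of the mesenchyme gate had 6.31 CPM (interval 5.62 to 7.07). For ENSOARG00020015536 the order was the other way, with 6.02 CPM (interval 4.61 to 7.71) in endothelium and 7.86 CPM (interval 7.09 to 8.70) in mesenchyme, and these intervals overlap. ENSOARG00020004314 had 3.88 and 4.86 CPM. A UMI of ENSOARG00020015678 was seen in 22.9% of the endothelium cells (interval 19.1 to 27.1%) and in 10.2% of the mesenchyme cells (interval 9.06 to 11.4%), at median depths of 18492 and 17633 UMIs. Thinned to 1000 UMIs, which left out 7 and 18 cells, the shares were 1.58% (interval 0.636 to 3.22%, the high cell included) and 0.695% (interval 0.412 to 1.10%), and these intervals overlap. The thinned Ujumqin mesenchyme cells had 61.6%. The most in one endothelium cell was 7 UMIs, and a cell in no gate had 14. In Ujumqin endothelium cells under 2% globin, ENSOARG00020015678 was 14.3% of the globin UMIs, close to the 13.8% of the mesenchyme cells.

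**Figure D5:**
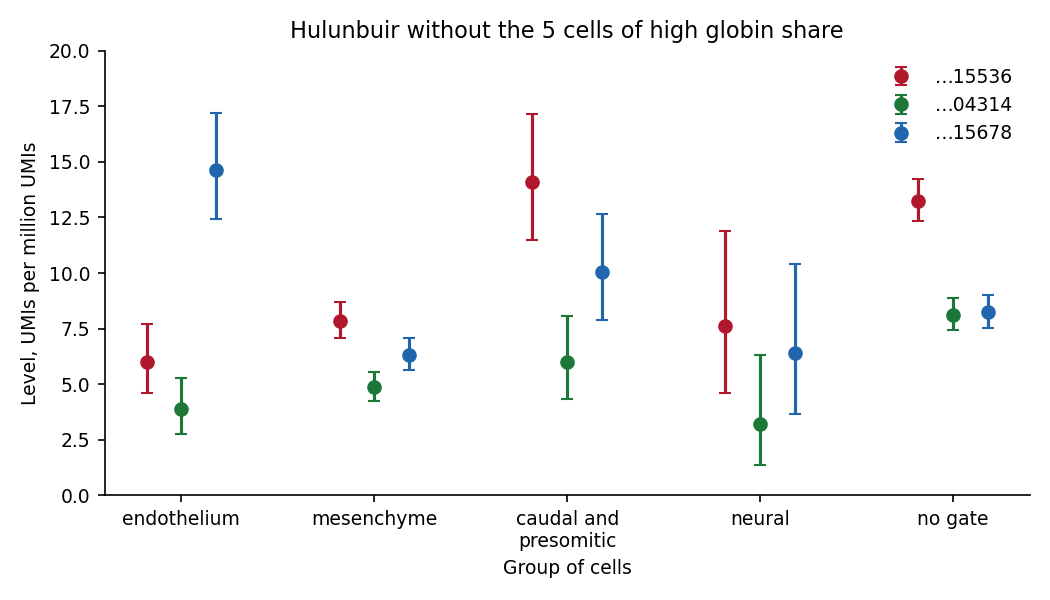
Levels (UMIs per 1000000 UMIs) of ENSOARG00020015536, ENSOARG00020004314 and ENSOARG00020015678 in 5 groups of Hulunbuir cells without the 5 cells of high globin share, with exact 95% Poisson intervals (1 library). ENSOARG00020015678 is the highest of the 3 in endothelium at 14.7 CPM and lies below ENSOARG00020015536 in the other groups, with intervals that overlap in the neural and the caudal and presomitic cells.

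Between the libraries, the mesenchyme gates were set side by side. Of 1996 genes tested, 16 were at least 4-fold lower in Hulunbuir, 0.802%, and 0.601% were at least 4-fold higher. The 5 members that reached 50 CPM were among the 16. They reached 50 CPM in the Ujumqin gate only, so they could not have been called higher in Hulunbuir. Their choice by high counts in Ujumqin erythroid cells also bears on this. The log2 ratio of Hulunbuir over Ujumqin was -10.73 for ENSOARG00020004314, -10.31 for ENSOARG00020015536, -10.11 for ENSOARG00020015576, -9.51 for ENSOARG00020004525 and -8.92 for ENSOARG00020015678. Against the Ujumqin mesenchyme cells under 2% globin alone, a choice made after seeing the data, the same ratios were -8.37, -8.35, -7.66, -7.62 and -6.79. ENSOARG00020004358 had 160 UMIs in the Ujumqin gate and 0 in Hulunbuir.

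HBQ1 stood apart from the 7 genes here. It had 9.20 CPM in the Ujumqin mesenchyme gate (interval 8.46 to 9.98) and 9.56 CPM in that of Hulunbuir (interval 8.70 to 10.5), with 5.44 CPM in the Ujumqin mesenchyme cells under 2% globin. In the Ujumqin erythroid gate it was 96.6 CPM, a log2 ratio of 3.39 over mesenchyme, where the 5 members tested had 4.29 to 4.47. The erythroid markers AHSP and ALAS2 were also lower in the Hulunbuir mesenchyme gate, at 0.650 and 0.0210 CPM against 50.3 and 21.9 CPM. The number of erythroid cells differs between the pools, and breed, pool and library cannot be told apart.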

How the data were processed

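Single-cell 3′ RNA libraries were made from 1 pool of embryonic day 16 embryos per breed (Ujumqin and Hulunbuir Short-tail sheep). The authors deposited the UMI counts of 26478 features per barcode as made by Cell Ranger (5.0.0 in the matrix header, 3.1.0 in the submitters' processing notes) on the rambouillet_v1.0 sheep reference, without normalization. Their notes also name Seurat 3.2.0 and R 3.6.1, which were used after these counts. Columns left unassigned were 0.

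From the counts, barcodes of 200 or more genes and less than 10% of UMIs on mitochondrial genes were taken as cells. Cells were classed by 11 marker lists without globin genes, and cells past the erythroid and another gate (29 in Ujumqin) were kept apart. No doublet caller was run, and doublets stayed in. A level is a gene's summed UMIs divided by the total UMIs of the same cells, times 1000000 (CPM). Intervals are exact Poisson for levels and exact binomial for shares, at 95%. Ratios between groups were taken for genes with at least 50 CPM in the higher group, with a floor of 3 counts and a limit of 4-fold. Likeness is Pearson's r of log2(UMIs per 10000 + 1) over the Ujumqin erythroid cells, for genes with at least 0.5 UMIs per cell. The SD from counting is that of binomial draws at each cell's own number of globin UMIs, over cells with at least 50. Shares of cells with a UMI were also taken after thinning to 1000 UMIs.

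The genes named were the 7 members, every gene with a globin symbol, the extremes of 4 fixed lists and the genes of highest likeness. The values of 1 list gene are not reported here. The members and lists were chosen with earlier results of these data known. The group of cells below the erythroid cut, the plasma protein limit of 5% and the limit of 5% for Hulunbuir cells were set after seeing the data. The ratio step was tested on simulated data for the Ujumqin erythroid and mesenchyme gates. Of 165 genes changed 8-fold that could be tested among 26478, 165 were recovered with 0 false calls. These changes lie well past the limit of 4-fold, and recovery of smaller changes was not tested. Whether globin UMIs in the erythroid total lead to false calls of lower genes was not tested either. Alternatives were other filters, gate cuts, totals and thinning depths. Depth limits the rare genes: with 54050739 UMIs in the Ujumqin erythroid gate, the floor of 3 counts is 0.0555 CPM. Scripts ran under Python 3.11.15 with scipy 1.17.1, numpy 2.4.6, matplotlib 3.10.9 and pandas 2.3.3.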

Additional observations from a re-analysis of the deposited data

Results flagged for a closer look

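Data outside the comparisons held globin UMIs as well. The 998 Ujumqin barcodes under 200 genes, which were left out of the cells, had 17.8% of their UMIs on the 7 genes, with a median of 125 globin UMIs per barcode. The 1507 Ujumqin barcodes of high mitochondrial share had 16.3%. In Hulunbuir the same groups had 0.0386% and 0.0197%.

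ENSOARG00020004499, which follows HBB in the features list and is not one of the 7 genes, had 7.44 CPM in the Ujumqin erythroid gate (402 UMIs, interval 6.73 to 8.20) and 0.414 CPM in the mesenchyme gate. It had 0 UMIs in the kept Hulunbuir cells.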

How the results depend on the processing

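No paired analysis was possible because each breed has 1 pooled library. Breed, pool and library cannot be told apart, and depth limits what can be said of HBM, ENSOARG00020004358 and HBB. All intervals cover counting error only and are narrow, so small shifts pass them.

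For the Ujumqin erythroid gate, the globin share of 46.9% became 46.8% with no cell filter, 46.8% as a mean of cells, 48.0% at a gate cut of 0.1% and 42.3% at 0.4%, which left 13 cells and gave 5420 CPM of ENSOARG00020004525 in place of 2925 and 69.1 CPM of HBM in place of 29.2. It was 55.8% of a total without mitochondrial and ribosomal protein genes, and globin came to 88.2% of the UMIs of all other genes. The share of ENSOARG00020015536 among globin UMIs, 44.3%, became 44.4% and 40.1% at the lower and the higher cut, 44.3% as a mean of cells and 44.5% in the cells below the cut.

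For the endoderm gate, 2.84% became 2.13% at a minimum of 500 genes, 3.21% with no filter, 1.90% and 3.24% at the lower and the higher cut, 3.80% and 2.92% in the respective totals, 13.1% as a mean of cells and 1.32% at a plasma protein share of 5%. For the other Ujumqin cells, 19.9% became 19.96% at 500 genes, 19.8% with no filter, 3.72% and 26.7% at the cuts, 25.7% and 24.8% in the totals, 19.0% as a mean of cells, 19.9% without shared barcodes and 3.72% without the cells below the cut. The lower cut moves those cells into the erythroid gate.

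For the Hulunbuir cells outside the erythroid gate, 0.0106% became 0.0108% with no filter, 0.00611% and 0.0143% at the cuts, 0.0144% without mitochondrial and ribosomal genes, 0.0167% as a mean of cells and 0.00267% without the 5 cells of high globin share.

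The share of Ujumqin mesenchyme cells with a UMI of ENSOARG00020015678 was 61.6% at 1000 UMIs, 46.9% at 500 and 79.2% at 2000, and in Hulunbuir it was 0.695%, 0.422% and 1.29%. A 2-fold limit gave 63 genes higher and 1053 lower in the Ujumqin erythroid gate, in place of 35 and 403.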
